A study of Mus musculus with 6 samples.

Results

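Nnt and 9 other genes of mitochondrial and cellular redox defence were examined in mouse bone marrow-derived macrophages of 2 genotypes, with and without a myeloid deletion of the gene for the long non-coding RNA Morrbid. The 10 genes were taken by symbol (Nnt, Sod1, Sod2, Cat, Gpx1, Prdx3, Prdx5, Txnrd2, Txn2 and Gsr), and all 10 were found among the 16138 genes of the authors' deposited table. They were picked with the comparison of genotypes already known, from the same ratios and q-values given here, so these values describe the genes and are not a test of the group.

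RNA was sequenced from 6 mouse samples, 3 control and 3 knockout. Control cells were Morrbid fl/fl, meaning that loxP sites flank the Morrbid gene on both alleles. Knockout cells, called cKO here, were Morrbid fl/fl with Lyz2-Cre, a Cre recombinase driven from the lysozyme 2 locus, which is active in myeloid cells and not in macrophages alone. Both groups carried the flanked alleles and received the same culture: marrow cells were kept for 7 days with M-CSF, the growth factor of macrophages, at 50 ng/ml. Only cKO cells carried Cre, so effects of Cre, of its place in the Lyz2 locus and of Morrbid loss cannot be told apart. Morrbid itself was not analysed here, so its loss was not checked. The age, sex and strain of the mice are not given in the labels used here, nor whether each sample is a different mouse. The p-values therefore reflect the spread among the 6 samples, which may be technical only. Each gene had 1 log2 ratio of cKO over control (called WT in the table's header), 1 p-value and 1 q-value. Values per library were not analysed here, so no sample can be shown on its own, and library depth is unknown. In such bulk RNA, fewer cells of a type and less RNA per cell cannot be told apart.

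Nnt encodes nicotinamide nucleotide transhydrogenase, an enzyme of the inner mitochondrial membrane that uses the proton gradient to pass reducing power from NADH to NADP and so keeps the matrix supplied with NADPH. That NADPH feeds the enzymes that remove oxidants. Superoxide leaking from the respiratory chain is turned into hydrogen peroxide by superoxide dismutases, and the peroxide is then reduced by peroxiredoxins, glutathione peroxidases or catalase. Thioredoxin reductase and glutathione reductase spend NADPH to recharge the thioredoxin and glutathione that these peroxidases use. In macrophages this system sits beside the phagocyte oxidase, which makes superoxide on purpose to kill microbes.

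At a q under 0.05, the authors' deposited table called 278 genes changed, or 1.72% of those listed, with 137 higher (0.849%) and 141 lower (0.874%) in cKO. Nnt and Sod2 were the 2 of the 10 redox genes among them, both higher in cKO, and the other 8 did not pass. Since the genes were chosen on this contrast, nothing is read from that share. The median log2 ratio of the 10 genes was 0.01 in the authors' deposited table, against -0.01 over all genes. None of the 10 shared its ratio and p-value with another gene, as 2023 genes of the authors' deposited table did.

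A standard error was derived from each ratio and its p-value, which assumes a Wald-type test, and was used as the measure of precision. For the 10 genes it ran from 0.0782 log2 units for Gpx1 to 0.161 for Sod2, with a median of 0.128 against 0.185 over all genes. At that precision a log2 ratio between 0.26 for Gpx1 and 0.54 for Sod2 was needed to reach a q under 0.05.

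**Figure D1:**
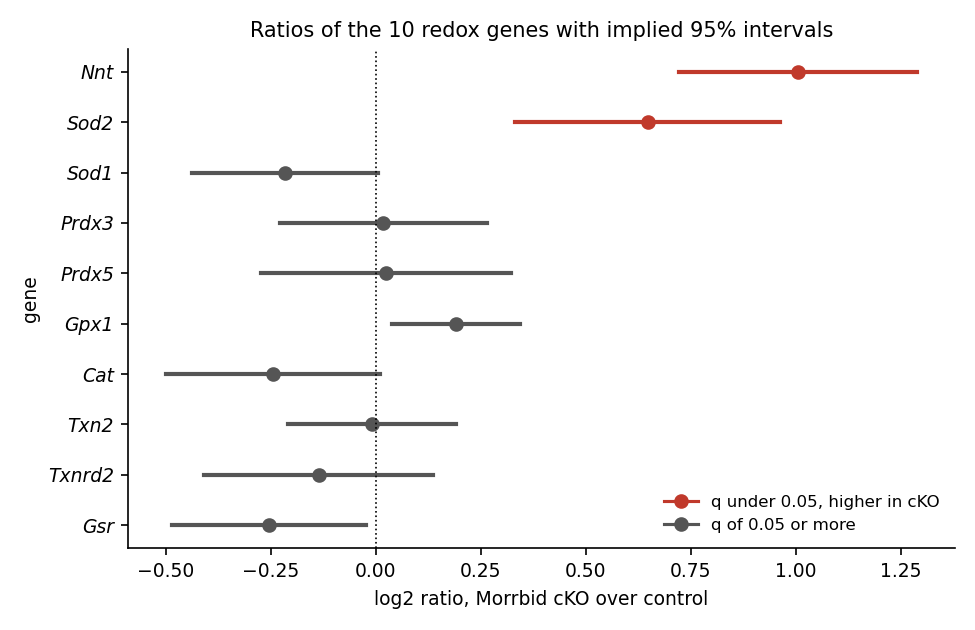
Log2 ratio of cKO over control (horizontal axis) for each of the 10 redox genes (vertical axis), as points with the 95% interval implied by the ratio and its p-value as bars; red marks a q under 0.05. Nnt at 1.01 and Sod2 at 0.65 lie to the right of 0, and the other 8 ratios lie between -0.25 and 0.19.

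Nnt (Gene ID 18115, on chromosome 13) was higher in cKO. Its log2 ratio was 1.01 in the authors' deposited table (p = 3.3e-12, q = 5.4e-09), which is 2.01 times the control level with an implied 95% interval of 1.65 to 2.44 times. By p-value it stood at rank 10 of all genes in the authors' deposited table and at rank 5 of the 137 higher genes. By size of the ratio it stood lower, at rank 35 of those 137, with 34 of them at larger ratios. No other gene of the RefSeq annotation overlapped Nnt, and 8 transcripts were assigned to it in the authors' deposited table. With 1 contrast, no likeness of pattern between Nnt and other genes can be measured.

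**Figure D2:**
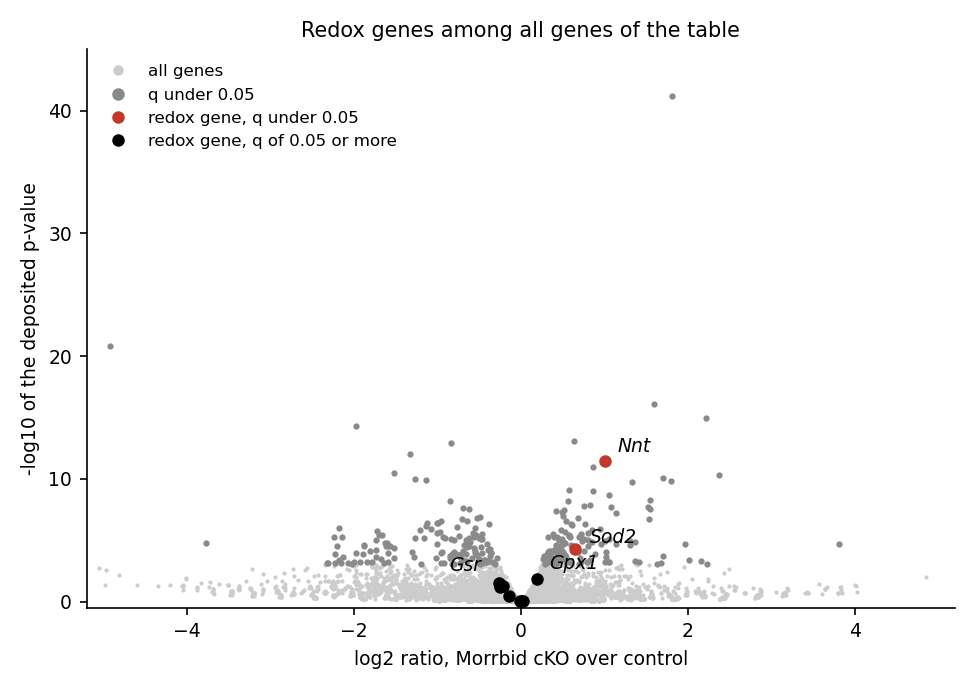
Each gene's log2 ratio of cKO over control (horizontal axis) against -log10 of its deposited p-value (vertical axis), with all genes in light grey, those at a q under 0.05 in dark grey and the 10 redox genes as large points, red at a q under 0.05 and black otherwise. Nnt and Sod2 are the 2 red points, and 2 genes that lie beyond the axes are not drawn.

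None of the genes next to Nnt passed, where 1.72% of all genes did, and nothing is read from so few genes. Of the 3 nearest listed genes on each side on chromosome 13, the q-values of all 6 ran from 0.232 to 1.000 in the authors' deposited table, and all 6 ratios were below 0. Directly beside Nnt were Fgf10, a fibroblast growth factor, at -0.02 (q = 1.000) and Paip1, which binds the poly(A)-binding protein, at -0.24 (q = 0.232) per the authors' deposited table. The estimate for Fgf10 was too imprecise to read, with an implied standard error of 3.98. Farther out on one side, Mrps30, a protein of the mitochondrial ribosome, stood at -0.02 (q = 0.994) and Emb, the adhesion protein embigin, at -0.57 (q = 0.243) per the authors' deposited table. Farther out on the other side, 4833420G17Rik stood at -0.13 (q = 0.993) and Tmem267 at -1.02 (q = 0.243) per the authors' deposited table. The deposited unadjusted p-values were 0.0101 for Emb, 0.00928 for Paip1 and 0.0101 for Tmem267, and those of the other 3 neighbours were above 0.05. Over all genes, 8.84% had an unadjusted p under 0.05.

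**Figure D3:**
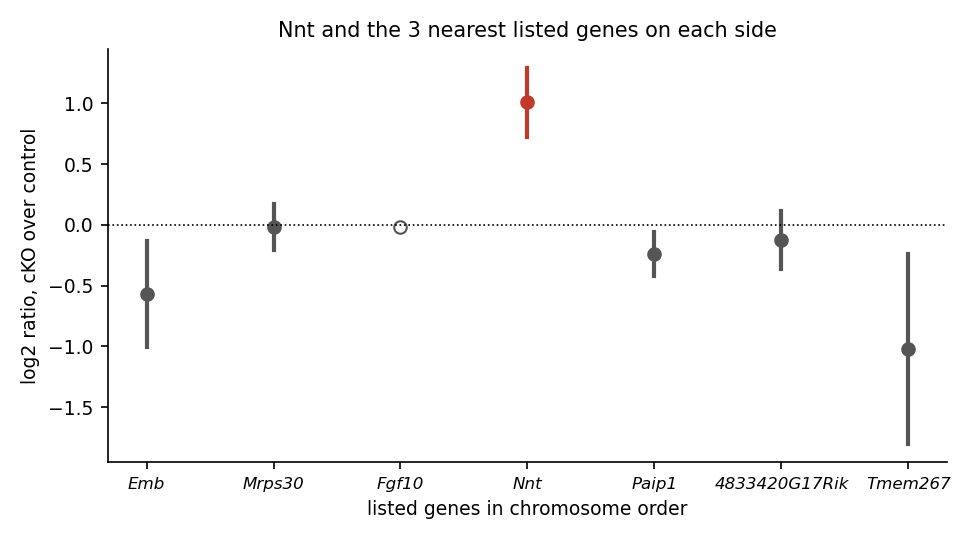
Log2 ratio of cKO over control (vertical axis) for Nnt and the 3 nearest listed genes on each side in chromosome order (horizontal axis), with implied 95% intervals as bars; red marks a q under 0.05. Nnt is the single gene above 0, and Fgf10 is drawn as an open circle without its bar because its implied standard error was 3.98.

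Nnt is also known for a difference between mouse substrains. C57BL/6J mice carry a deletion of several internal exons of Nnt and make no functional enzyme, whereas C57BL/6N mice carry the intact gene. The mouse reference assembly, on which mm9 and the promoter sequences given here are based, derives from C57BL/6J. A list of 7 genes reported to differ in sequence or expression between these substrains held Nnt and 6 others. Of those 6, 1 passed in the authors' deposited table, where 1.72% of all genes did, and nothing is read from that count. That gene was Wdfy1, which encodes a FYVE-domain protein of endosomes, at 1.81 (q = 5.3e-38), rank 2 of all genes by p-value per the authors' deposited table. Cyfip2, a regulator of actin assembly, stood at 0.15 (q = 0.993) and Ide, the insulin-degrading enzyme, at -0.28 (q = 0.638) per the authors' deposited table. Entpd4, a nucleotide hydrolase of internal membranes, stood at 0.48 (q = 0.993) and Nlrp12, an innate immune sensor, at -0.02 (q = 1.000) per the authors' deposited table. Both estimates were imprecise, with implied standard errors of 0.873 for Entpd4 and 0.718 for Nlrp12. The ratio of Crb1, a cell polarity gene, was -2.47 (q = 0.993) per the authors' deposited table with an implied standard error of 3.39, so it cannot be read. The list was chosen with the Wdfy1 and Nnt results in view, and the part of substrain in them was not tested.

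Superoxide dismutases came next in the pathway, and the mitochondrial and cytosolic forms had ratios of opposite sign. Sod2 (Gene ID 20656, on chromosome 17), the manganese enzyme of the mitochondrial matrix, was higher in cKO with a log2 ratio of 0.65 in the authors' deposited table (p = 5.6e-05, q = 0.00628). That is 1.57 times the control level, with an implied 95% interval of 1.26 to 1.95 times. After a Holm adjustment, which is stricter than the q-value, it did not pass (adjusted p = 0.891), whereas Nnt did (adjusted p = 5.4e-08). Sod2 stood at rank 143 by p-value among all genes and at rank 62 by ratio among the 137 higher genes of the authors' deposited table. Sod1 (Gene ID 20655, on chromosome 16), the copper and zinc enzyme of the cytosol and of the space between the mitochondrial membranes, stood at -0.22 (q = 0.593) per the authors' deposited table. Its implied 95% interval ran from 0.738 to 1.005 times the control level. The difference between the 2 ratios was not tested, since the shared libraries make their errors dependent in a way that 1 value per gene does not show.

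Promoter sequence from RefSeq on build GRCm38.p6 was matched for 8 of the 10 genes by Gene ID, and Nnt and Gsr were not matched. The 250 bases before the annotated start of Sod2, the matched gene that changed, are shown with those of Sod1, its cytosolic counterpart. They are chr17:13007589-13007838 and chr16:90220512-90220761, both on the plus strand and written 5′ to 3′. Capitals mark matches on either strand to the GC box GGGCGG, bound by Sp1, or to the antioxidant response element core TGACNNNGC, bound by NRF2.
Sod2: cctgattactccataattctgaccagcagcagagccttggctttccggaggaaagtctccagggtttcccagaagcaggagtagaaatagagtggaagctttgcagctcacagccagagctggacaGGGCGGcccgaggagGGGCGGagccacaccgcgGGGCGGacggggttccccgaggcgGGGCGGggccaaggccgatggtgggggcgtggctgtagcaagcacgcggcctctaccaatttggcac
Sod1: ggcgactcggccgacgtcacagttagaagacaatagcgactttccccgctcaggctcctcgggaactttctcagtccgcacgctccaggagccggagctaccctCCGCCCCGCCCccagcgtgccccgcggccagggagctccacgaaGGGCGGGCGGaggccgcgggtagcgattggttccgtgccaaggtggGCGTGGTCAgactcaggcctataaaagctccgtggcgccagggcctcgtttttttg
Both windows held 4 GC boxes, all on the plus strand in Sod2, and in Sod1 a pair of overlapping matches on each strand. GC boxes were found in 7 of the 8 matched windows, Gpx1 being the exception, and in 32.7% of all 32851 promoter windows of that length. The antioxidant element core was found in Sod1 alone among the 8, on its minus strand, and in 10.2% of all windows. G and C made up 63.6% of the Sod2 window and 66.4% of the Sod1 window, where the median window had 52.4%. These matches describe letters in the windows and say nothing of binding.

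Of the 10 genes, those that reduce peroxide did not pass. Prdx3 (Gene ID 11757), the peroxiredoxin found in mitochondria alone, had a log2 ratio of 0.02 (q = 0.998) per the authors' deposited table, with an implied interval of 0.854 to 1.202 times the control level. Prdx5 (Gene ID 54683), a peroxiredoxin shared by mitochondria, peroxisomes and cytosol, also stood at 0.02 (q = 0.997) per the authors' deposited table, with an interval of 0.827 to 1.251 times. Both peroxiredoxins thus had ratios within a few hundredths of 0. Prdx5 overlaps Trmt112 in the RefSeq annotation, a cofactor of methyltransferases that stood at 0.07 (q = 0.993) per the authors' deposited table. The labels used here do not say whether counting used the strand, so reads of overlapping genes may have been shared.

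Gpx1 (Gene ID 14775), the glutathione peroxidase of cytosol and mitochondria, was the member nearest to the threshold among those that did not pass. Its log2 ratio was 0.19 with q = 0.297 in the authors' deposited table, while Sod2, the member just inside, had q = 0.00628. Its unadjusted p was 0.0144 and its implied interval was narrow, 1.03 to 1.27 times the control level. Cat (Gene ID 12359), catalase, which breaks down hydrogen peroxide mainly in peroxisomes, had a ratio below 0, at -0.24 (q = 0.603) per the authors' deposited table. Its interval was 0.708 to 1.007 times the control level. Gpx1 and Cat, which remove the same oxidant, had ratios on opposite sides of 0, and neither passed.

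The thioredoxin and reductase genes among the 10, which supply electrons to the peroxidases, did not pass either. Txn2 (Gene ID 56551), mitochondrial thioredoxin, had the ratio nearest to 0 of the 10 genes, at -0.01 (q = 1.000) per the authors' deposited table. Its implied interval was 0.866 to 1.141 times the control level. Txnrd2 (Gene ID 26462), the mitochondrial thioredoxin reductase, which spends NADPH to recharge that thioredoxin, stood at -0.14 (q = 0.993) per the authors' deposited table, with an interval of 0.753 to 1.100 times. Gsr (Gene ID 14782), glutathione reductase, had the lowest ratio of the 10 genes, at -0.25 (p = 0.0305, q = 0.446) per the authors' deposited table, with an interval of 0.714 to 0.984 times. Gsr overlaps 2 predicted genes in the annotation, neither of which was among the listed genes.

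The intervals describe the precision of the ratios of the 8 genes that did not pass, under the assumed Wald-type test. As the samples may be technical replicates only, the intervals set no bound on an effect across mice. Over all 8, the lowest bound was -0.50 and the highest 0.34 log2 units, or 0.708 to 1.270 times the control level, each interval covering 1 gene on its own. The interval of Sod2, from 0.33 to 0.96 log2 units, overlapped that of Gpx1, from 0.04 to 0.34. Of the 8 intervals, 6 included 0, and those of Gpx1 above 0 and of Gsr below 0 did not. At an unadjusted p under 0.05 there were 4 of the 10 genes (Nnt, Sod2, Gpx1 and Gsr), and 8.84% of all genes, per the authors' deposited table.

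Around these genes, 6 wider lists of redox and mitochondrial genes held 120 measured genes of 123 listed. At a q under 0.05, 2 rose and 1 fell in the authors' deposited table, which is 2.50% against 1.72% of all genes. Those that rose were Nadk and Rac2, and the one that fell was Gpx3, and none of these 3 passed after Holm adjustment. The median log2 ratio over the 120 was -0.02 in the authors' deposited table.

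**Figure D4:**
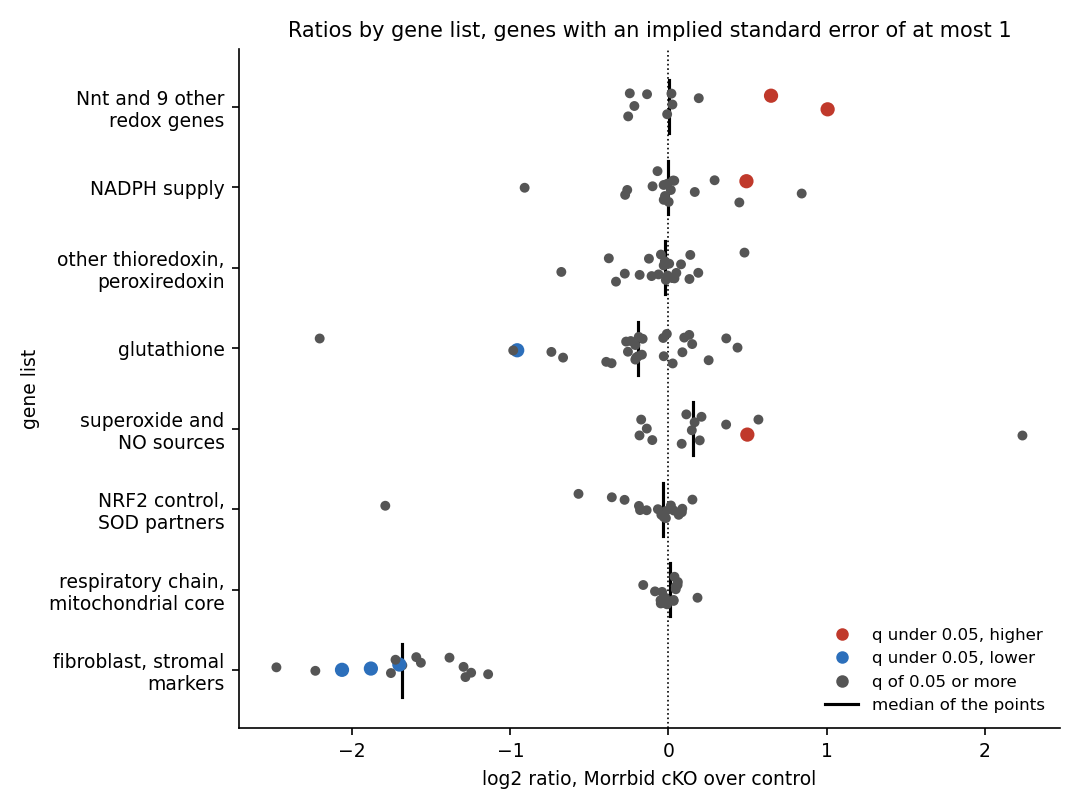
Log2 ratio of cKO over control (horizontal axis) for each gene whose implied standard error did not exceed 1, by list (vertical axis), with the median of the drawn points as a black line; red and blue mark genes at a q under 0.05 that were higher or lower. The medians of the redox and mitochondrial lists lie between -0.19 for glutathione and 0.16 for superoxide and NO sources, and all 15 drawn fibroblast and stromal markers lie below -1.

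Among 18 genes that supply NADPH, 1 rose (5.56% called, against 1.72% of all genes) and 17 did not pass, and nothing is read from 1 gene. The median log2 ratio over the 18 was 0.00 per the authors' deposited table. Nadk, the cytosolic kinase that makes NADP from NAD, was the gene that rose, at 0.49 (q = 0.0013) per the authors' deposited table. Idh2, the NADP-dependent isocitrate dehydrogenase that is another source of NADPH in the matrix, stood at 0.00 (q = 1.000) per the authors' deposited table with an implied standard error of 0.127. Pgd, of the pentose phosphate pathway, stood at -0.26 (q = 0.239) and Idh1, the cytosolic isocitrate dehydrogenase, at -0.27 (q = 0.694) per the authors' deposited table. Mthfd2, of mitochondrial folate metabolism, stood at 0.45 (q = 0.665) per the authors' deposited table. Of this list, 9 ratios lay above 0 and 9 below.

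None of 22 other thioredoxin, peroxiredoxin, glutaredoxin and methionine sulfoxide reductase genes passed in the authors' deposited table, where 1.72% of all genes did. The median log2 ratio was -0.02, and 3 of the 22 had an unadjusted p under 0.05, against 8.84% of all genes. The 3 were Glrx, cytosolic glutaredoxin, at 0.48 (q = 0.300), Msrb2, a mitochondrial methionine sulfoxide reductase, at -0.38 (q = 0.376), and Prdx4, the peroxiredoxin of the endoplasmic reticulum, at -0.18 (q = 0.484), per the authors' deposited table. Among 30 genes of glutathione synthesis, use and transport, 1 fell (3.33% called, against 1.72% of all genes) and 29 did not pass. The median over the 30 was -0.19 with 21 ratios below 0 per the authors' deposited table. Gpx3, the secreted glutathione peroxidase, was lower at -0.96 (q = 0.0429) per the authors' deposited table. Gpx8, a peroxidase of the endoplasmic reticulum, stood at -2.21 (q = 0.222), Gpx4, which reduces lipid peroxides, at -0.21 (q = 0.320) and Oplah, 5-oxoprolinase, at -0.67 (q = 0.484) per the authors' deposited table.

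Markers of another cell type were listed as well. All 16 fibroblast and stromal markers had ratios below 0 in the authors' deposited table, from -2.48 to -1.14 with a median of -1.69. Over all genes, 8441 of 16138 ratios were below 0. The ratio of Gpx3, at -0.96, lay outside the range of these markers, nearer to 0. At a q under 0.05, 3 of them (Col5a1, Loxl1 and Acta2) fell, against 0.874% of all genes. At an unadjusted p under 0.05 there were 15 of the 16, against 8.84% of all genes. These markers were named after their values were seen, so nothing is read from the shares. One of the 16, Lum, had an implied standard error of 3.39 and cannot be read, and the median of the other 15 was -1.68. Their part in the ratios of Gpx3 and the other glutathione genes was not tested. Of 12 macrophage markers, all of them listed, 1 rose (Adgre1) and 1 fell (Lyz2) with a median of 0.06 in the authors' deposited table. That is 16.7% called, against 1.72% of all genes, and nothing is read from that share either. Lyz2 is the locus that carries Cre in cKO cells alone, so an effect of that construct on its ratio cannot be told apart. The table's ratios do not give the level of any marker.

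A further list held sources of superoxide and nitric oxide together with regulators and other genes that are not sources themselves. Of its 15 measured genes, 1 rose (6.67% called, against 1.72% of all genes) and 14 did not pass. The median log2 ratio over the 15 was 0.17, with 11 above 0, per the authors' deposited table. One of the 15, Noxa1, had an implied standard error of 4.08 and cannot be read, and the median of the other 14 was 0.16. Rac2, the small GTPase that activates the phagocyte oxidase in blood cells, was the gene that rose, at 0.50 (q = 0.00815) per the authors' deposited table. The oxidase subunit genes Cybb, Cyba, Ncf1 and Ncf4 stood between -0.14 and 0.21, and none of these 4 passed, per the authors' deposited table. Xdh, xanthine dehydrogenase, stood at 0.36 (q = 0.102) and Cyba, the p22phox subunit, at 0.20 (q = 0.531) per the authors' deposited table. Nos2, inducible nitric oxide synthase, had the highest ratio of this list at 2.24 but an implied standard error of 0.959 (q = 0.353 in the authors' deposited table).

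No gene passed among 19 of NRF2 control and of superoxide dismutase partners in the authors' deposited table, where 1.72% of all genes did. The median log2 ratio was -0.03, and 2 of the 19 had an unadjusted p under 0.05, against 8.84% of all genes. The 2 were Sod3, the secreted superoxide dismutase, at -1.79 (q = 0.0557), and Nfe2l2, which encodes NRF2, at -0.19 (q = 0.512), per the authors' deposited table. The ratio of Sod3 lay within the range of the fibroblast and stromal markers, whose part in it was not tested. Nqo1, a quinone reductase induced by NRF2, stood at -0.57 (q = 0.712) per the authors' deposited table. The 3 superoxide dismutases thus stood at 0.65 for the mitochondrial, -0.22 for the cytosolic and -1.79 for the secreted form in the authors' deposited table, and of these Sod2 alone passed.

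The ratios of other mitochondrial genes were grouped around 0. Of 16 genes of the respiratory chain, the ATP synthase, the inner membrane and the mitochondrial core, none passed, where 1.72% of all genes did. None had an unadjusted p under 0.05, against 8.84% of all genes. Their log2 ratios ran from -0.16 to 0.18 with a median of 0.01 in the authors' deposited table. The outermost were Cox4i1, a subunit of cytochrome c oxidase, at -0.16 (q = 0.675) and Opa1, which fuses inner membranes, at 0.18 (q = 0.571) per the authors' deposited table. The ratios of Nnt and Sod2 lay outside the range of these 16 genes, and those of Gpx1, Gsr, Sod1 and Cat were just outside it, without a test of that difference.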

How the data were processed

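RNA from macrophages of 2 genotypes, 3 control and 3 cKO samples, was sequenced after TRIzol extraction, per the labels' protocols. The authors deposited 1 log2 ratio of Morrbid cKO over WT per gene, per the file headers. The header's WT was read as the Morrbid fl/fl control group. The authors deposited a p-value and a q-value beside it, per the file headers. Bowtie2, RSEM 1.3.1, DESeq2 1.4.5 and the mouse build mm9 were used, per the submitters' processing notes, which give no role or order. For scaling and filters, nothing is stated in the labels used. Recomputed from the p-values by Benjamini-Hochberg over 16138 genes, q-values differed from those deposited by at most 0.00591 of their size.

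The tests planned for counts needed values per library, so the deposited q-values at a threshold of 0.05 were used. Standard errors and 95% intervals were computed from each ratio and its two-sided p-value with SciPy 1.17.1, pandas 2.3.3 and NumPy 2.4.6 in Python 3.11.15. The code for adjusted p-values and standard errors was run on ratios simulated under the same Wald form. That run checks the arithmetic and cannot check the Wald assumption or the intervals. Figures used matplotlib 3.10.9. The genes, lists and alternatives were chosen with earlier results of these data known. Named were all 10 redox genes, the genes of each wider list that passed and up to 3 others with the smallest p, all genes of the substrain list and the neighbours of Nnt. A few genes that these rules also pick are not reported here. Idh2, the oxidase subunits, a gene overlapping a member and the marker genes were named after their values were seen. RefSeq (GRCm38.p6) served for promoter sequences and for which genes neighbour or overlap each other, since the build differs from mm9.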

Additional observations from a re-analysis of the deposited data

How the results depend on the processing

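Alternatives were other thresholds and adjustments of the same deposited ratios and p-values, so no ratio or direction could change. Nnt was past the threshold under all 5, with its log2 ratio of 1.01 barely above the minimum of 1. Sod2 passed under 3 of them. Its Holm-adjusted p was 0.891, and its ratio of 0.65 lay under a minimum of 1, so 1 redox gene in place of 2 was called under each of these settings. The other 8 genes did not pass under any. Over all genes, 165 were called at a q under 0.01, 94 with a minimum absolute log2 ratio of 1 and 67 after Holm adjustment, where 278 were called without these limits. These settings are stricter by construction. Of the wider redox lists, 0 genes were called in place of 3 with the minimum ratio or after Holm adjustment. Restricted to the 12407 genes whose implied standard error did not exceed 1, the calls rose to 321 of all genes (2.59%) and to 4 of the wider lists, since Sod3 then passed (adjusted p = 0.0428). Over mRNA genes alone, 273 were called.

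No paired analysis was possible because every gene came with a single ratio and no value for any library. Fits that leave out each sample in turn, other scalings and filters on low counts were not run either. Precision was judged from the implied standard errors in place of depth.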
